A study of Mus musculus with 20 samples.

Results

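The disease-associated microglia genes are described here as 10 genes, Trem2, Tyrobp, Axl, Itgax, Clec7a, Gpnmb, Spp1, Lpl, Cst7 and Lgals3, of the 33119 genes counted in the hippocampus of 20 mice. They were chosen by name, as genes that microglia raise around plaques and damage, and each of the 10 passed the filter on low counts, which kept 21724 genes. The mice were C57BL/6 animals aged 16 months, carrying human APOE3 (hAPOE3) or human APOE4 (hAPOE4) in place of mouse Apoe on both chromosomes. Each of 4 groups held 5 mice. The females are numbered S144 to S148 (carrying hAPOE3) and S164 to S168 (carrying hAPOE4), and the males S154 to S158 (carrying hAPOE3) and S174 to S178 (carrying hAPOE4). The question was how sex and APOE genotype, alone and together, go with the level of these genes. The labels name no amyloid transgene, and a group with mouse Apoe or of another age was not analysed here.

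Microglia are the resident macrophages of the brain. TREM2 is a surface receptor that binds lipids and lipoproteins, APOE among them, and signals through the adaptor TYROBP. In mouse models of amyloid and demyelination, microglia that contact plaques or myelin debris lower their resting markers and turn on a shared set of genes for phagocytosis, lysosomal digestion and lipid handling, the later part of which depends on TREM2.

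The level of each gene is given as CPM (counts scaled to library size after TMM normalization), and a difference as a log2 fold change from edgeR's quasi-likelihood test over all 20 mice, with its standard error and a Benjamini-Hochberg adjusted p over 21724 genes. Total counts ran from 35778879 to 52520279 a mouse. Resting microglia markers were present throughout, with P2ry12 between 23.8 and 44.9 CPM and Tmem119 between 16.2 and 28.5 CPM. In bulk tissue, fewer cells of a type and less RNA per cell cannot be told apart. Reads assigned to mouse Apoe gave 37.4 to 98.9 CPM and did not pass the test in any of the 7 comparisons. Human APOE was not in the mouse reference, so its 2 alleles were not measured. Some libraries stood apart in markers of other tissues. Choroid plexus markers were high (score above 0) in 10 mice, 7 of them females, and oocyte genes were high in 4 hAPOE4 males, S175 to S178. The choroid plexus scores of S167 (-0.34) and S178 (-0.13) lay below 0 but in the upper of 2 clusters, given below. Fits without the mice high in choroid plexus markers keep both. Meningeal and vascular fibroblast markers and markers of border macrophages, which live in the meninges and around vessels, both had scores above 0 in the hAPOE4 females other than S168 (border macrophages 0.67 to 1.31), in the hAPOE3 female S144 (0.84) and in the males S178 (0.52), S176 (0.41) and S158 (0.21). The males S158 and S176 also had the highest oligodendrocyte scores (1.10 and 0.80, the other 18 mice at 0.16 or below). Hippocampal neuron scores were low in both (-0.61 and -0.53) and lowest in S178 (-0.66), whose oligodendrocyte score was 0.14. A score averages, over the genes of a list, the log2 CPM after subtracting each gene's own mean.

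Per kilobase of the longest coding transcript (GENCODE vM21, GRCm38), median levels over the 20 mice ran from 19.95 CPM per kb for Tyrobp to 0.294 for Itgax. Trem2 (11.8), Lpl (10.99), Axl (10.8) and Spp1 (7.52) followed Tyrobp. Gpnmb stood at 1.51, Lgals3 at 0.808, Cst7 at 0.631 and Clec7a at 0.534. The genes held as most specific to the activated state, Clec7a, Itgax and Cst7, were thus the least abundant per kilobase. Raw counts per mouse were 25 to 122 for Clec7a, 14 to 124 for Itgax, 7 to 68 for Cst7 and 15 to 91 for Lgals3, and 160 or more for the other 6 genes, so these 4 carry the most counting error.

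**Figure D1:**
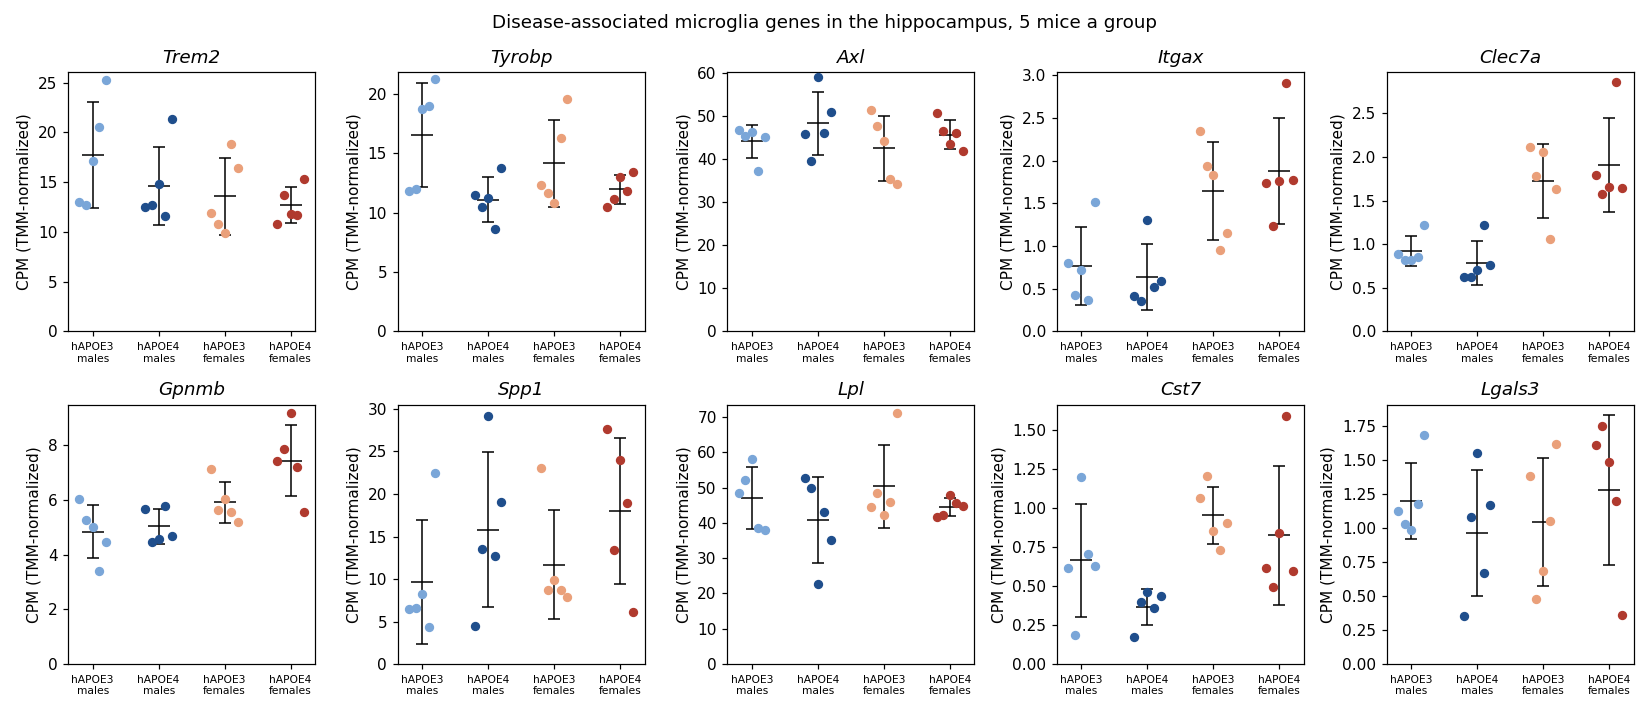
TMM-normalized CPM (vertical axes, from 0) of the 10 genes in the 4 groups of sex and genotype, with 1 point a mouse and a bar for the mean ± SD (n = 5). Clec7a and Itgax sat higher in females, Trem2 and Tyrobp had high values in part of the hAPOE3 mice, and Spp1 spread widely within each group.

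Clec7a was higher in females, by 2.13-fold averaged over genotypes, and was the 1 gene of the 10 to pass the test between the sexes. Itgax, Cst7 and Gpnmb also had higher mean values in females of both genotypes and did not pass. Clec7a encodes Dectin-1, a receptor for fungal glucans that signals through SYK. In males, Clec7a was at 0.884, 0.817, 0.817, 0.854 and 1.22 CPM in the hAPOE3 mice and at 0.618, 0.626, 0.704, 1.22 and 0.755 CPM in the hAPOE4 mice. In females it was at 2.11, 1.79, 2.06, 1.05 and 1.64 CPM with hAPOE3 and at 1.80, 1.57, 1.65, 2.86 and 1.65 CPM with hAPOE4. The hAPOE4 females all lay above the hAPOE4 males, whereas 1 hAPOE3 female, S147, lay below the highest hAPOE3 male, S158.

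In hAPOE4 mice, Clec7a had a sex difference of 1.28 (log2, SE 0.23, 2.43-fold, higher in females), with an adjusted p of 0.00811 by edgeR. It was the 1 member called of 10, where 0.437% of all genes tested were called and 0.023% were called higher in females. Averaged over both genotypes the difference was 1.09 (SE 0.16, 2.13-fold, adjusted p = 0.00426), again the 1 member called, against 0.129% of all genes called and 0.0276% called higher. In hAPOE3 mice the difference was 0.90 (SE 0.23), with an unadjusted p of 0.000826 and an adjusted p of 0.605. There 0 of 10 members and 0.0414% of all genes were called by edgeR, and DESeq2 called 0 members and 23 of 21724 genes. In edgeR 2 members (Clec7a and Itgax) had an unadjusted p under 0.05 and were higher, against 2.32% of all genes. The sex difference in hAPOE4 mice was not shown to exceed that in hAPOE3 mice, since the interaction for Clec7a was 0.38 (SE 0.33, 95% interval -0.31 to 1.07, adjusted p = 1.00 in edgeR).

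The Clec7a difference between hAPOE4 sexes lay between 1.10 and 1.62 under 16 other ways of fitting and was called in 10 of them. It kept its call with each of the 10 hAPOE4 mice left out in turn (1.09 to 1.49, adjusted p 0.00262 to 0.0376). It lost its call with the 2 compared groups fitted alone (1.28, adjusted p = 0.0774), with limma (1.49, adjusted p = 0.0539), with the fibroblast score as a covariate (1.10, adjusted p = 0.0961), with the oocyte score as a covariate (1.61, adjusted p = 1.00), and without the mice high in choroid plexus markers (1.49, adjusted p = 0.837) or oocyte genes (1.62, adjusted p = 1.00). The last fit leaves 1 hAPOE4 male. The fit without the mice high in choroid plexus markers leaves only S167 and S168 as hAPOE4 females, S167 with the highest Clec7a value. Averaged over genotypes the difference was called in 9 of 15 other fits (0.94 to 1.38) and with each mouse left out. It was not called with limma, the deposited factors, the oocyte or fibroblast score, or without the choroid plexus or oocyte mice. Of the fibroblast markers, 7 of 7 had higher values in hAPOE4 females than in hAPOE4 males, by a median of 0.94 (log2), with scores of -0.47 to 1.10 against -0.60 to 0.44. Of these 5 had an unadjusted p under 0.05 and 0 passed the test. Of the choroid plexus markers, 12 of 12 had higher values in hAPOE4 females, by a median of 1.85, with scores of -2.13 to 2.87 against -1.90 to 1.90, 5 at an unadjusted p under 0.05 and 0 past the test. Of the border macrophage markers, 8 of 8 had higher values, by a median of 0.74, 3 at an unadjusted p under 0.05 and 0 past the test. Of the 8 oocyte genes tested, 6 were lower in hAPOE4 females at adjusted p under 0.05.

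**Figure D2:**
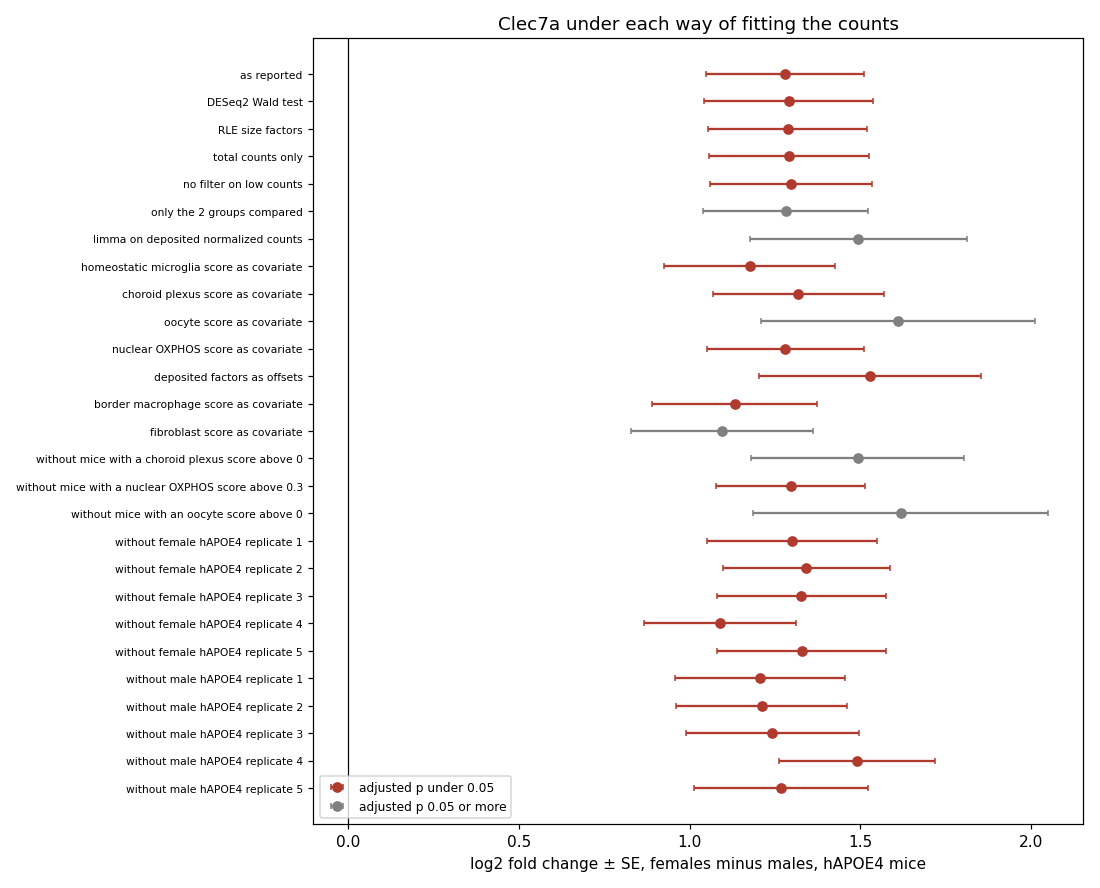
Log2 fold change ± SE (horizontal axis) of Clec7a between hAPOE4 females and hAPOE4 males, as reported and under each other way of fitting, with red for an adjusted p under 0.05 and grey for the rest. Each value lay above 0, from 1.09 to 1.62, and the fits in grey are those in which the call was lost.

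Itgax encodes integrin alpha X (CD11c), which pairs with the beta 2 integrin and marks dendritic cells as well as activated microglia. It was at 0.803, 0.421, 0.721, 0.363 and 1.51 CPM in hAPOE3 males and at 0.419, 0.351, 1.31, 0.524 and 0.585 CPM in hAPOE4 males. In females it was at 2.35, 1.94, 1.83, 0.955 and 1.15 CPM with hAPOE3 and at 1.73, 1.23, 1.76, 2.91 and 1.77 CPM with hAPOE4. The sexes overlapped in each genotype through 1 high male, S158 with hAPOE3 and S176 with hAPOE4, the mice with the high oligodendrocyte scores.

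The sex difference of Itgax was 1.09 (SE 0.39, adjusted p = 0.805) in hAPOE3 mice, 1.54 (SE 0.39, adjusted p = 0.127) in hAPOE4 mice and 1.31 (SE 0.27, adjusted p = 0.0740) averaged over genotypes. It did not pass the test with edgeR over all 20 mice. In hAPOE4 mice it passed without S176, at 1.99 (adjusted p = 0.0184). S176 is the 1 male that overlapped these females, so leaving it out by itself raises the difference and gives no test of it. With S176 kept, the difference in hAPOE4 mice also passed without the 5 hAPOE3 mice high in oxidative phosphorylation genes, which are described below. That fit removes no hAPOE4 mouse. Averaged over genotypes the difference passed without S158 (1.53, adjusted p = 0.0187), S174 (1.25, adjusted p = 0.0414) or S176 (1.54, adjusted p = 0.0165). Leaving out S158 or S176, the high males, likewise raises the difference by itself. DESeq2 also called Itgax, at an adjusted p of 0.0138 in hAPOE4 mice and 9.46e-04 averaged. In hAPOE4 mice the 16 other fits gave 1.10 to 2.32, and 3 of them called it. Of the 10 fits with 1 hAPOE4 mouse left out, 1 called it. Averaged over genotypes, 2 of 15 other fits did, and 3 of 20 with a mouse left out. Without the 10 mice high in choroid plexus markers the Itgax difference was 2.32 in hAPOE4 mice (adjusted p = 0.0430). That fit leaves only S167 and S168 as hAPOE4 females, S167 with the highest Itgax value of all mice. It also removes the high male S176. Dendritic cell markers differed in level, with Flt3 at 10.997 to 21.3 CPM and Zbtb46 at 8.46 to 13.8 CPM. Xcr1 was at 0.166 to 0.553 CPM, Clec9a at 0.259 to 0.833 CPM and Cd209a at 0.063 to 1.0997 CPM. These ranges overlapped that of Itgax (0.351 to 2.91 CPM). Siglecg was at 0.292 CPM or below, and Ccr7 was at 0 in 9 of 20 mice. The part of dendritic cells in Itgax was not tested.

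Cst7 encodes cystatin F, an inhibitor of lysosomal cysteine proteases. It was at 0.616, 0.184, 1.20, 0.704 and 0.628 CPM in hAPOE3 males and at 0.177, 0.401, 0.463, 0.357 and 0.439 CPM in hAPOE4 males. Among females it was at 1.07, 1.21, 0.857, 0.735 and 0.903 CPM with hAPOE3 and at 0.613, 0.496, 0.838, 1.59 and 0.597 CPM with hAPOE4. The hAPOE4 males were low as a group and did not overlap the hAPOE4 females. With Clec7a this made 2 of 10 members that lay higher in hAPOE4 females without overlap, against 0.276% of all genes. The difference was 1.16 (SE 0.38, adjusted p = 0.464) in hAPOE4 mice, 0.51 (SE 0.37, adjusted p = 0.805) in hAPOE3 mice and 0.84 (SE 0.26, adjusted p = 0.294) averaged, and did not pass the test.

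Gpnmb encodes a transmembrane glycoprotein of lysosomes and melanosomes. It was at 6.03, 5.27, 5.00, 3.42 and 4.47 CPM in hAPOE3 males and at 5.67, 4.46, 4.57, 5.79 and 4.68 CPM in hAPOE4 males. Among females it was at 7.13, 5.63, 6.02, 5.56 and 5.21 CPM with hAPOE3 and at 7.42, 7.84, 9.19, 7.19 and 5.54 CPM with hAPOE4. Of the hAPOE4 females, 4 lay above each of the males, and S168 lay among them. The sex difference was 0.56 (SE 0.15, adjusted p = 0.186) in hAPOE4 mice and 0.43 (SE 0.11, adjusted p = 0.149) averaged, and passed with DESeq2 (adjusted p = 0.0389 and 0.0199). Without S168 the hAPOE4 difference was 0.65 and passed in edgeR (adjusted p = 0.0430). S168 is the lowest of the hAPOE4 females, so leaving it out by itself raises the difference and gives no test of it. In hAPOE4 mice the 16 other fits gave 0.31 to 0.58, and DESeq2 alone called Gpnmb. Averaged over genotypes, 1 of 15 other fits called it, and 0 of 20 with a mouse left out.

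Clec7a, Itgax, Cst7 and Gpnmb were the 4 of 10 members with an unadjusted p under 0.05 between the hAPOE4 sexes, all higher in females, where 2.35% of all genes were higher at that level. The same 4 stood under 0.05 averaged over genotypes (3.79% of all genes). The median log2 difference of the 10 members between hAPOE4 sexes was 0.30, against -0.0086 over all genes tested.

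**Figure D3:**
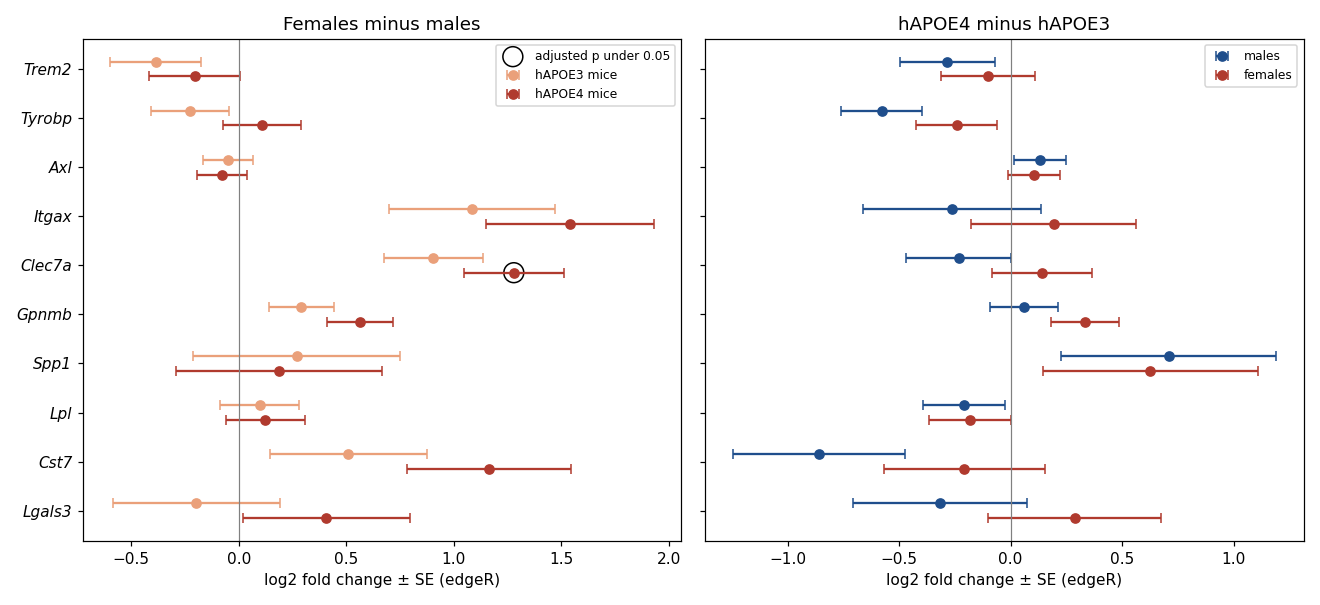
Log2 fold change ± SE (horizontal axes) of each gene between females and males in either genotype (left) and between hAPOE4 and hAPOE3 in either sex (right), from edgeR over 20 mice. The ring marks the 1 value with an adjusted p under 0.05, Clec7a between the hAPOE4 sexes at 1.28.

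The stretches before the starts of these 4 genes are shown because the genes lay higher in females together. They are the 250 bases before the RefSeq start on the gene's strand (GRCm38.p6), and capitals mark a match on either strand to GAGGAA (a core of PU.1 sites), CACGTG (an E-box bound by MITF and TFE factors), TGANTCA (an AP-1 site) or AGGTCA (a nuclear receptor half-site). The windows are chr6:129472780-129473029 (minus strand) for Clec7a, chr7:128129300-128129549 (plus) for Itgax, chr2:150570165-150570414 (plus) for Cst7 and chr6:49036268-49036517 (plus) for Gpnmb.
Clec7a: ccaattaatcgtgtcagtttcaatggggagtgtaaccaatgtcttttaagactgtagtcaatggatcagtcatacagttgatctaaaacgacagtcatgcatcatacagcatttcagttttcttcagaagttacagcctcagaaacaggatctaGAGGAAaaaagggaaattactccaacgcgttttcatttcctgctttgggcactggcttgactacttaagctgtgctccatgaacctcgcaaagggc
Itgax: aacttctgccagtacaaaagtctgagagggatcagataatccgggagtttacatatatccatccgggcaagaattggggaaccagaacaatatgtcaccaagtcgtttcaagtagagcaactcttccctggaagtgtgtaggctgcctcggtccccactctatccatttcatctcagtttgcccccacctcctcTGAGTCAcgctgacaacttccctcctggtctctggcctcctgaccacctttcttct
Cst7: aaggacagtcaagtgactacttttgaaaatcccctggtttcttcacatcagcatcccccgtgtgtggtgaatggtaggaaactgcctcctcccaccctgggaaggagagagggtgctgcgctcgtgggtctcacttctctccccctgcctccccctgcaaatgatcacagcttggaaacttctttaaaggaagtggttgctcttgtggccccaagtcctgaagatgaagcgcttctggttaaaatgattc
Gpnmb: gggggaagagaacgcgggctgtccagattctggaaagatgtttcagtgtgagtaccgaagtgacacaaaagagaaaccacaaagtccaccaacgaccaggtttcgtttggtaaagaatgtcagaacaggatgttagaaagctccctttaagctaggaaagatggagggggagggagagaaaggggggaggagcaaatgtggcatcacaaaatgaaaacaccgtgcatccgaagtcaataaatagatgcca
Clec7a held GAGGAA with its first base 96 bases before the start, and Itgax held TGANTCA 56 bases before it. No single motif of the 4 was in more than 1 of these 4 windows. Of 32851 windows of the same length, 23.3% held GAGGAA, 6.75% TGANTCA and 6.02% CACGTG, and AGGTCA was in 4607 of them. Promoter entries were matched for 8 of the 10 genes, and GAGGAA was in 4 of the 8.

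By position (GENCODE vM21, GRCm38), Clec7a spans 129461591 to 129472779 of chromosome 6 and is annotated as a polymorphic pseudogene. The other 9 genes are annotated as protein coding. Itgax spans 128129547 to 128150657 of chromosome 7, Cst7 150570415 to 150578944 of chromosome 2, Gpnmb 49036546 to 49070929 of chromosome 6, Trem2 48346401 to 48354147 of chromosome 17 and Tyrobp 30413760 to 30417585 of chromosome 7. Axl spans 25757273 to 25788705 of chromosome 7, Lpl 68880491 to 68907448 of chromosome 8 and Lgals3 47367751 to 47386160 of chromosome 14. Spp1 spans 104435118 to 104441050 of chromosome 5 and overlaps Gm42793 on the same strand, so that reads of the overlap could be split between them.

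Over APOE genotype, no member passed the test. In males 0 of 10 members were called against 0.621% of all genes, in females 0 against 0.667%, and averaged over the sexes 0 against 2.45%. At an unadjusted p under 0.05 there were 2 members in males (Tyrobp and Cst7, both lower in hAPOE4, as 4.56% of all genes were), 1 in females (Gpnmb, higher, against 3.57%) and 1 averaged (Tyrobp, lower, against 9.7%). DESeq2 called 0, 0 and 1 of the 10, the last being Tyrobp, where it called 232, 345 and 1086 of all 21724 genes. The median log2 difference of the 10 members was -0.25 in males and 0.12 in females. The interaction of sex and APOE called 0 of 10 members against 0.184% of all genes. In edgeR 0 members had an unadjusted p under 0.05 for it, against 2.54%. DESeq2 called 0 members and 64 of 21724 genes for the interaction.

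Trem2 and its adaptor Tyrobp had high values in the same 5 of the 10 hAPOE3 mice. Tyrobp was at 11.8, 11.985, 18.7, 19.02 and 21.3 CPM in hAPOE3 males and at 11.5, 10.4, 11.2, 8.60 and 13.8 CPM in hAPOE4 males. Female values were 12.3, 11.7, 10.8, 16.3 and 19.6 CPM with hAPOE3 and at 10.5, 11.2, 12.975, 11.8 and 13.4 CPM with hAPOE4. Each hAPOE3 group thus held both low and high mice, and the hAPOE4 mice were all at 13.8 CPM or below. Tyrobp was lower in hAPOE4 by 0.58 in males (SE 0.18, adjusted p = 0.255), by 0.24 in females (SE 0.18, adjusted p = 0.722) and by 0.41 averaged (SE 0.13, adjusted p = 0.0929, or 0.0417 with DESeq2).

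Trem2 was at 13.04, 12.7, 17.1, 20.6 and 25.3 CPM in hAPOE3 males and at 12.5, 12.7, 14.8, 11.6 and 21.3 CPM in hAPOE4 males. In females it was at 11.9, 10.8, 9.88, 18.8 and 16.4 CPM with hAPOE3 and at 10.8, 13.7, 11.8, 11.7 and 15.3 CPM with hAPOE4. The genotypes overlapped in either sex, with log2 differences of -0.28 (SE 0.21, adjusted p = 0.666) in males and -0.10 (SE 0.21, adjusted p = 0.928) in females. Females were at lower values than males in both genotypes, by -0.39 (SE 0.21) and -0.20 (SE 0.21), and neither passed the test (adjusted p = 0.805 and 1.00).

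These 5 mice were, for both genes, S147, S148, S156, S157 and S158, at 16.3 to 21.3 CPM for Tyrobp and 16.4 to 25.3 CPM for Trem2. The other 5 were at 10.8 to 12.3 and 9.88 to 13.04 CPM. The same 5 mice had the highest score over 22 short nuclear genes of oxidative phosphorylation, 0.35 to 0.54, where the other 15 mice lay between -0.37 and 0.075. Leaving these 5 mice out removes the highest hAPOE3 values of both genes and so by itself raises the hAPOE4 difference, and gives no test of it. Without them the averaged APOE difference of Tyrobp was -0.034 (adjusted p = 0.892) and that of Trem2 was 0.20 (adjusted p = 0.488). With the score as a covariate the values were -0.22 (adjusted p = 0.158) and 0.0016 (adjusted p = 0.996). Tyrobp, with the shortest longest transcript of the 10 genes (597 bases), most resembled Fam96b, Gm10175 and Idnk over the 20 mice, with correlations of group-centred log2 CPM of 0.95, 0.95 and 0.94 among 16087 genes, given as a description. For Clec7a the most alike genes were Spata1, Zfp677 and Abcg2, at 0.78, 0.77 and 0.73 by the same measure.

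**Figure D4:**
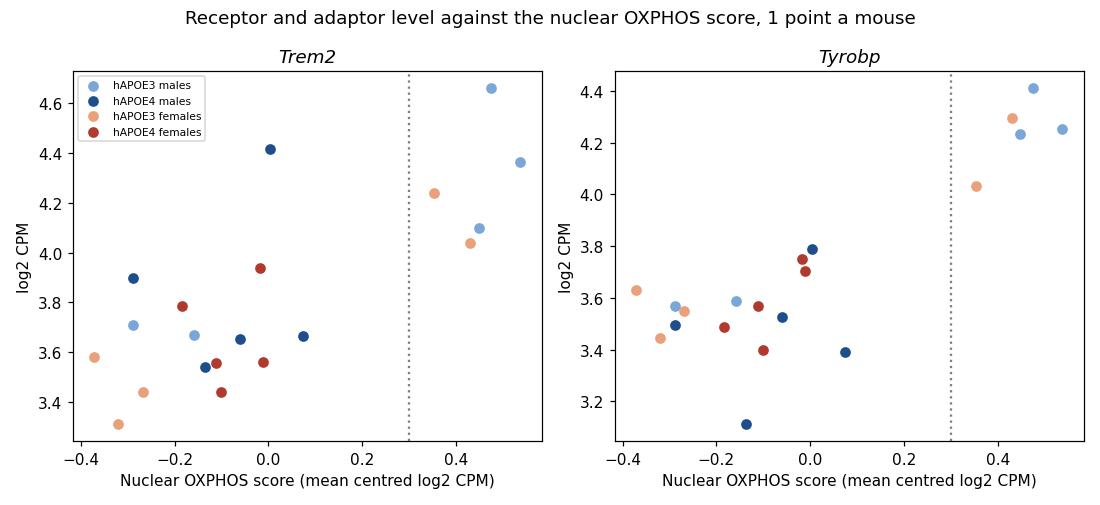
Log2 CPM of Trem2 and Tyrobp (vertical axes) against the nuclear OXPHOS score (horizontal axis, mean centred log2 CPM over 22 genes), 1 point a mouse coloured by group. The 5 hAPOE3 mice right of the dotted line at 0.3 hold the 5 highest Tyrobp values, 16.3 to 21.3 CPM before the log.

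Spp1 encodes osteopontin, a secreted ligand of integrins and CD44. It was at 6.43, 6.59, 8.27, 4.38 and 22.5 CPM in hAPOE3 males and at 4.44, 13.6, 29.2, 12.8 and 19.1 CPM in hAPOE4 males. Female values were 23.1, 8.70, 9.91, 8.67 and 7.94 CPM with hAPOE3 and at 27.6, 13.4, 23.95, 18.9 and 6.07 CPM with hAPOE4. Of the hAPOE4 mice 8 of 10 lay at 12.8 CPM or above and of the hAPOE3 mice 8 of 10 at 9.91 CPM or below. These levels were read off the same values, and the groups overlapped in both sexes. The hAPOE4 difference was 0.71 in males (SE 0.48, adjusted p = 0.644) and 0.63 in females (SE 0.48, adjusted p = 0.727), within the spread between mice. Averaged over the sexes it was 0.67 (SE 0.34) and did not pass in edgeR (unadjusted p = 0.0639, adjusted p = 0.311).

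The level of Spp1 ran with the border macrophage score (Mrc1, Lyve1, Cd163, Pf4, F13a1, Ms4a7, Cbr2 and Stab1), with each value taken as its difference from the group mean. Over 20 mice Pearson's r was 0.85 (permutation within groups, p = 3e-05, adjusted p = 9e-04 over 30 relations) and Spearman's rho 0.86 (permutation p = 2e-05, adjusted p = 6e-04). Without the 2 mice farthest from the median score r was 0.79. All 8 border macrophage markers had higher values in hAPOE4 than in hAPOE3 females, by a median of 0.88 (log2). Their summed levels were 26.4 to 65.6 against 19.8 to 45.2 CPM. In edgeR 5 of the 8 had an unadjusted p under 0.05, where 3.57% of all genes were higher at that level, and 0 of 8 passed the test. With this score as a covariate the Spp1 difference in females turned to -0.50 (adjusted p = 0.824), and in males it was 0.33 (adjusted p = 0.730). The fibroblast score, high in the same mice, also turned the female difference below 0. In males the oocyte score did so. Spp1 was at 12.8 to 29.2 CPM in the 4 hAPOE4 males high in oocyte genes and at 4.44 CPM in S174. The cause of these changes was not tested.

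Axl, a receptor tyrosine kinase that binds GAS6 on dying cells, ran with the same score, with r = 0.69 (permutation p = 0.00079, adjusted p = 0.0079), rho = 0.70 (permutation p = 0.00255, adjusted p = 0.0255) and r = 0.66 without the 2 mice. Itgax gave r = 0.58 (permutation p = 0.0073, adjusted p = 0.0548) and rho = 0.63 (permutation p = 0.00554, adjusted p = 0.0415), with r = 0.66 without the 2 mice. The other 7 members did not pass with either measure. Against the homeostatic microglia score 0 of 10 members passed, with r from -0.18 (Lgals3) to 0.47 (Cst7, permutation p = 0.0795, rho = 0.37, r = 0.30 without 2 mice).

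**Figure D5:**
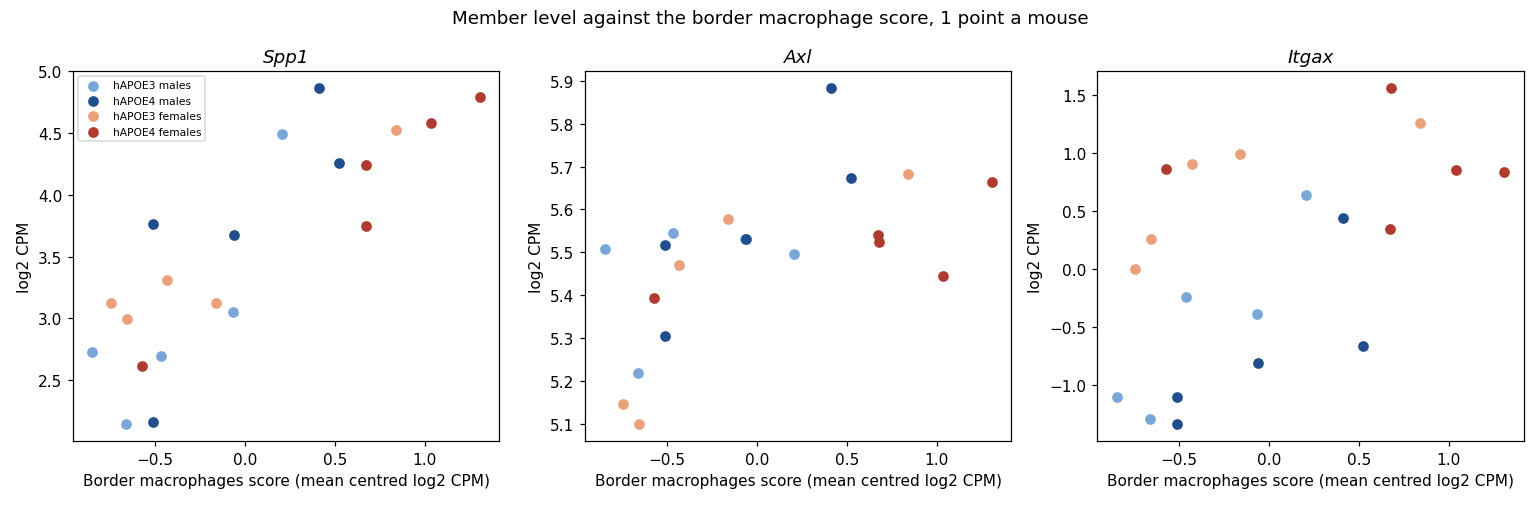
Log2 CPM of Spp1, Axl and Itgax (vertical axes) against the border macrophage score (horizontal axes, mean centred log2 CPM over 8 markers), 1 point a mouse coloured by group, as measured and not centred. Spp1 followed the score most closely, with a within-group r of 0.85 over 20 mice.

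Axl, Lpl and Lgals3 did not pass the test in any of the 7 comparisons. Axl lay between 34.2 and 59.0 CPM over the 20 mice, with group means of 42.6 ± 7.54 (SD, n = 5) with hAPOE3 and 45.7 ± 3.32 with hAPOE4 in females, and of 44.1 ± 3.92 with hAPOE3 and 48.3 ± 7.27 with hAPOE4 in males. Its log2 differences ran from -0.08 between the hAPOE4 sexes (SE 0.12) to 0.13 between the male genotypes (SE 0.12). The 4 groups overlapped.

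Lpl encodes lipoprotein lipase, which releases fatty acids from triglyceride-rich particles and is also made by hippocampal neurons. It lay between 22.8 and 71.1 CPM, with means in females of 50.4 ± 11.8 (SD, n = 5) with hAPOE3 and 44.4 ± 2.56 with hAPOE4, and in males of 47.2 ± 8.75 with hAPOE3 and 40.8 ± 12.1 with hAPOE4. The hAPOE4 differences were -0.21 (SE 0.18, adjusted p = 0.716) in males and -0.18 (SE 0.18, adjusted p = 0.813) in females, and did not pass the test.

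Lgals3 encodes galectin-3, a secreted lectin that binds damaged lysosomes. It was at 1.12, 1.03, 0.985, 1.17 and 1.68 CPM in hAPOE3 males and at 0.353, 1.08, 1.55, 0.667 and 1.17 CPM in hAPOE4 males. Female values were 1.38, 0.478, 0.685, 1.05 and 1.62 CPM with hAPOE3 and at 1.61, 1.75, 1.48, 1.20 and 0.358 CPM with hAPOE4. The 4 groups overlapped, with a sex difference of 0.41 (SE 0.39, adjusted p = 1.00) in hAPOE4 mice. Choroid plexus scores fell into 2 clusters, 8 mice from -2.28 to -1.67 and 12 from -0.34 to 2.87, so no correlation over all 20 is given. Within the 8 mice Lgals3 gave r = -0.24 (exact permutation p = 0.556, rho = -0.43). Within the 12 it gave r = 0.48 (permutation p = 0.104) and rho = 0.63 (permutation p = 0.0320, adjusted p = 0.448 over 20 relations). Here values were not centred on group means, and mice were permuted across sex and genotype, so these p-values do not allow for the groups.

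Ordered by group means, Clec7a and Itgax ran from hAPOE4 females over hAPOE3 females and hAPOE3 males to hAPOE4 males. For each of the 10 genes, neighbours in the order of group means overlapped. Around the 10 genes, 93 of the 98 genes of 7 lists were tested, and 0 passed in any of the 7 comparisons. Of 30 further disease-associated microglia genes, 6 had an unadjusted p under 0.05 between hAPOE4 sexes, all higher in females, against 2.35% of all genes. They were led by Cybb, the catalytic subunit of the phagocyte NADPH oxidase (0.93, SE 0.22, adjusted p = 0.0748). Of 12 homeostatic microglia genes, 8 had higher values in hAPOE4 females than males, and the median difference over the 12 was 0.058. In edgeR 3 of the 12 had an unadjusted p under 0.05, all higher in females, against the same 2.35% of all genes. In that list the smallest adjusted p averaged over genotypes was that of Gpr34 (0.49, SE 0.11, adjusted p = 0.0904). The kinase Lyn led 15 genes of TREM2 and CLEC7A signalling (0.24 higher in hAPOE4 averaged over sexes, SE 0.078, adjusted p = 0.113), and the AXL ligand Pros1 led 6 genes of that family (0.14 by the same comparison, SE 0.10, adjusted p = 0.503). Cd36, a fatty acid and lipoprotein receptor, led 15 genes of lipid handling (0.78 higher in hAPOE4 averaged over sexes, SE 0.24, adjusted p = 0.0878). Itgb5 led 9 integrin partners and osteopontin receptors (0.50 by the same comparison, SE 0.20, adjusted p = 0.191). The transcription factor gene Mitf led 6 genes of lysosomal control (0.41 higher in females averaged over genotypes, SE 0.11, adjusted p = 0.172).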

How the data were processed

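Hippocampal RNA of 20 mice was sequenced from polyA libraries. The authors assigned paired-end reads to mouse transcripts (Ensembl cDNA) with Salmon 0.91 and summarised them with tximport, and the deposited estimated counts are whole numbers for 33119 genes. The authors also deposited normalized counts made with DESeq2, a signal in which each count is divided by a value that differs by gene. Relative to the mouse median this factor varied for Clec7a (0.717 to 1.36), Itgax (0.567 to 1.18) and Lgals3 (0.687 to 1.31), and it was used for alternatives only. All sample columns were matched by name.

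The main test was that of edgeR 4.0.16, run in R 4.3.3 (TMM, filterByExpr by group, glmQLFit and glmQLFTest on 1 mean per group over all 20 mice, Benjamini-Hochberg adjustment, threshold 0.05), with 95% intervals from the residual degrees of freedom. The comparisons were genotype within each sex, sex within each genotype, both averaged, and the interaction. DESeq2 1.42.0, limma 3.58.1 (log2 of the deposited normalized counts plus 1), other normalizations, marker score covariates and left-out mice were alternatives, 6 of them added after seeing the data. Log2 CPM for scores used a prior count of 2. The labels name separate mice. Relations over all 20 mice used 100000 permutations within groups. Those within the choroid plexus clusters used values not centred on group means and permuted the mice of a cluster across sex and genotype. In 190 pairs of libraries, counts differed by more than sampling noise (chi-square per degree of freedom at least 7.28). Scripts were tested on simulated data. The members and lists were chosen with earlier results of these data known. Named genes are the members, up to 4 genes past the threshold per list or otherwise the 1 with the smallest adjusted p, and the 3 genes most alike to Clec7a and Tyrobp. Gene symbols matched the annotation for 31059 of 33119 genes.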

Additional observations from a re-analysis of the deposited data

Results flagged for a closer look

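Each of the 10 genes in each of the 4 groups of 5 mice gave 1 of 40 sets of values. In 9 of these sets 1 mouse lay far from the other 4. The gap to its nearest neighbour was above 0.71 of the group's range. The same mice recur across the sets and CPM was not logged. The rate of about 1 in 20 for independent normal values therefore does not apply here. Mouse S158, an hAPOE3 male, was the high one for Clec7a (1.22 CPM, the next at 0.884), for Spp1 (22.5 CPM, the next at 8.27) and for Lgals3 (1.68 CPM, the next at 1.17). It also had the highest oligodendrocyte score (1.10) of the 20 mice and a hippocampal neuron score of -0.61. Its T cell score (1.86, over the 3 tested markers Cd4, Cd8a and Trac) was the highest too. The part of these cell types in its values was not tested. Clec7a was also high in the hAPOE4 male S177 (1.22 CPM, the next at 0.755) and in the hAPOE4 female S167 (2.86 CPM, the next at 1.80). Itgax stood at 1.31 CPM in the hAPOE4 male S176, the next at 0.585, and this mouse had an oligodendrocyte score of 0.80 and a hippocampal neuron score of -0.53. Lpl stood at 71.1 CPM in the hAPOE3 female S148, the next at 48.4, and Spp1 at 23.1 CPM in the hAPOE3 female S144, the next at 9.91. Axl was low in the hAPOE3 male S157, at 37.2 CPM with the next at 45.1.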

How the results depend on the processing

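Each direction and call was recomputed under 16 alternatives (15 for the interaction and the averaged comparisons) and with mice left out in turn. Of the 7 counts of members called, those between the genotypes in either sex, between the hAPOE3 sexes and of the interaction were 0 in all of these. Between the hAPOE4 sexes the count of 1 became 3 with DESeq2, 2 without the 5 mice with an OXPHOS score above 0.3, and 0 with the 2 compared groups alone, with limma, with the oocyte or fibroblast score as a covariate and without the mice with an oocyte score above 0, and 1 to 2 with 1 mouse left out. Averaged over genotypes the count of 1 became 3 with DESeq2 and 0 with limma, the oocyte or fibroblast score, the deposited factors (Clec7a adjusted p = 0.0575) or without the oocyte mice, and 1 to 2 with 1 mouse left out. For APOE averaged over sexes the count of 0 became 1 with DESeq2. Of the relations to marker scores 3 of 30 passed by Pearson's r, namely 2 with border macrophages and 1, Lgals3, with the choroid plexus score, whose clusters are given apart. By Spearman's rho 3 passed with border macrophages and 1 with choroid plexus. By Pearson's r the count was 5 without centring on the group means. The removals of mice and the border macrophage, fibroblast and deposited factor alternatives were added after seeing the data, and the cause of the changes was not tested. No paired analysis was possible because the groups hold separate mice, whose labels carry no number or litter that ties a mouse of 1 group to a mouse of another. The low counts of Clec7a, Itgax, Cst7 and Lgals3 limit their precision.

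The values that changed sign under an alternative were those of members that did not pass the test in that comparison. Between the genotypes in males, Lpl turned to 0.034 with the oocyte score and 0.17 without the oocyte mice. Spp1 turned to -1.06 with the oocyte score and -1.11 without the oocyte mice. Axl turned to -0.010 with the OXPHOS score and -0.023 without the choroid plexus mice. Gpnmb turned to -0.056 with the OXPHOS score, -0.012 with the fibroblast score, -0.082 without the choroid plexus mice and -0.18 without the OXPHOS mice. Trem2 turned to 0.018 with the OXPHOS score, 0.016 without the choroid plexus mice and 0.17 without the OXPHOS mice. Itgax turned to 0.065 without the OXPHOS mice. With 1 mouse left out, values crossed 0 within -0.052 to 0.15 for Gpnmb and -0.71 to 0.16 for Itgax. Between the genotypes in females, Clec7a turned to -0.043 with the border macrophage score and -0.059 without the OXPHOS mice. Itgax turned to -0.24 with the border macrophage score, -0.16 with the fibroblast score and -0.12 without the OXPHOS mice. Lpl turned to 0.019 with the border macrophage score, 0.0091 with the fibroblast score and 0.12 without the choroid plexus mice. Axl turned to -0.074 with the border macrophage score, -0.060 with the fibroblast score and -0.063 without the OXPHOS mice. Spp1 turned to -0.50 with the border macrophage score and -0.36 with the fibroblast score. Lgals3 turned to -0.38 with the border macrophage score and -0.43 with the fibroblast score. Cst7 turned to 0.38 without the choroid plexus mice. Trem2 turned to 0.48 without the choroid plexus mice and 0.22 without the OXPHOS mice. Tyrobp turned to 0.24 without the choroid plexus mice and 0.043 without the OXPHOS mice. In every comparison the fit without the choroid plexus mice leaves 1 hAPOE3 female, S146. Removing 1 mouse at a time, values crossed 0 within -0.19 to 0.047 for Trem2, -0.048 to 0.22 for Clec7a and -0.017 to 0.36 for Itgax. Between the hAPOE3 sexes, Spp1 turned to -0.14 with the choroid plexus score and -0.37 with the fibroblast score. Lpl turned to -0.35 without the choroid plexus mice and -0.16 without the OXPHOS mice. Axl turned to 0.062 without the OXPHOS mice. With 1 mouse left out, values crossed 0 within -0.14 to 0.86 for Spp1, -0.13 to 0.017 for Axl and -0.061 to 0.18 for Lpl. Between the hAPOE4 sexes, Spp1 turned to -0.31 with the choroid plexus score, -0.67 with the border macrophage score and -1.003 with the fibroblast score. Lgals3 turned to -0.15 with the choroid plexus score, -0.058 with the border macrophage score, -0.35 with the fibroblast score and -0.059 without the choroid plexus mice. Lpl turned to -0.100 with the oocyte score and -0.25 without the oocyte mice. Trem2 turned to 0.012 without the oocyte mice. Removing 1 mouse at a time, values crossed 0 within -0.051 to 0.53 for Spp1, -0.028 to 0.24 for Lpl and -0.14 to 0.0035 for Axl. In the interaction, Axl turned to 0.031 with limma, 0.10 with the OXPHOS score, 0.0038 with the deposited factors, 0.038 without the choroid plexus mice and 0.048 without the oocyte mice. Lpl turned to -0.038 with the homeostatic microglia score, -0.21 with the oocyte score, -0.016 with the OXPHOS score and -0.35 without the oocyte mice. Spp1 turned to 1.62 with the oocyte score, 0.052 with the OXPHOS score and 1.75 without the oocyte mice. Trem2 turned to -0.033 with the OXPHOS score. Itgax turned to -0.19 without the OXPHOS mice. Cst7 turned to -0.21 without the OXPHOS mice. With 1 mouse left out, values crossed 0 within -0.12 to 0.18 for Lpl, -0.095 to 0.056 for Axl and -0.67 to 0.32 for Spp1. Between the genotypes averaged over sexes, Itgax turned to 0.0084 with limma. Lgals3 turned to 0.0065 with the homeostatic microglia score, 0.064 with the OXPHOS score and 0.21 without the OXPHOS mice. Spp1 turned to -0.25 with the oocyte score, -0.082 with the border macrophage score, -0.043 with the fibroblast score and -0.24 without the oocyte mice. Trem2 turned to 0.0016 with the OXPHOS score, 0.25 without the choroid plexus mice and 0.20 without the OXPHOS mice. Axl turned to -0.013 with the border macrophage score, -0.014 with the fibroblast score, -0.0039 without the choroid plexus mice and -0.0013 without the OXPHOS mice. Clec7a turned to 0.043 without the choroid plexus mice. Removing 1 mouse at a time, values crossed 0 within -0.26 to 0.18 for Itgax, -0.14 to 0.10 for Lgals3 and -0.15 to 0.018 for Clec7a. Between the sexes averaged over genotypes, Spp1 turned to -0.22 with the choroid plexus score, -0.25 with the border macrophage score and -0.69 with the fibroblast score. Lgals3 turned to -0.41 with the choroid plexus score, -0.15 with the border macrophage score, -0.47 with the fibroblast score and -0.34 without the choroid plexus mice. Tyrobp turned to 0.053 with the OXPHOS score and 0.051 without the OXPHOS mice. Lpl turned to -0.17 without the choroid plexus mice, -0.0061 without the OXPHOS mice and -0.079 without the oocyte mice. Axl turned to 0.00087 without the OXPHOS mice. With 1 mouse left out, values crossed 0 within -0.0028 to 0.23 for Lgals3. Against the homeostatic microglia score, r turned to -0.096 for Spp1, 0.019 for Trem2 and 0.089 for Tyrobp with the median over the list. Without centring, r of Clec7a against the choroid plexus score turned to 0.36.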

Other observations

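Of 7 T cell markers 3 were tested, Cd4, Cd8a and Trac, and their score was highest in S158 (1.86). Cd4 reached 11.1 CPM in that mouse, against a median of 0.449 CPM over the 20 mice. The highest values of any mouse were 1.88 CPM for Trac, 0.453 for Cd8a and 0.322 for Cd3e. For Cd3g, Cd2 and Cd8b1 they were 0.312, 0.194 and 0.122 CPM. Neutrophil genes were near 0 throughout, S100a8 at no more than 0.463 CPM and Ngp at 0 in 5 of 20 mice. Oligodendrocyte markers had lower mean values in females than in males for 7 of 7 genes in both genotypes, and 0 passed the test. The median difference was -0.49 (log2) in hAPOE3 mice and -0.19 in hAPOE4 mice. In each genotype 1 male stood apart, S158 with a score of 1.10 and S176 with 0.80. The other males had scores of -0.27 to 0.16, and the females of -0.47 to 0.022. Of 7 endothelial markers, 1 was called higher in hAPOE4 averaged over the sexes (smallest adjusted p = 0.0363), and 0 of 7 astrocyte and 0 of 10 hippocampal neuron markers were called in that comparison.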
